A study of Mus musculus with 3 samples.

Results

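Reads of 24 to 32 nt, the length range of PIWI-interacting RNAs (piRNAs), were compared between a MIWI2 immunoprecipitate of spleen and the small RNA of adult testis. They were chosen by length alone, taken as end minus start of each mapped read. They numbered 65363 of 692011 reads in spleen (9.45%, 95% interval 9.38 to 9.51) and 1071061 of 1143785 in testis (93.6%). Together these are 1136424 of the 2659248 reads in the 3 libraries of the series. The spleen RNA came from unfractionated splenocytes of C57Bl6/J mice aged 10 weeks and was recovered with a rabbit polyclonal antibody against MIWI2 (PIWIL4). The testis RNA came from mice of the same strain and age, without an antibody, from the band near 29 nt of an 18% polyacrylamide gel. Splenocytes are a mixture of blood and immune cells, and the labels do not say how many animals were pooled. The third library, a MIWI2 immunoprecipitate of MEL cells (a Friend virus-transformed erythroblast line), serves below only as a reference.

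PIWI proteins are Argonaute-family proteins that bind piRNAs and silence transposons in the germ line. In adult testis most piRNAs come from long single-stranded precursor transcripts of a limited number of genomic clusters, and are cut so that the 5′ end is fixed first and the 3′ end is trimmed afterwards. MIWI2 is known best from fetal male germ cells. The study's stated purpose was to determine the piRNAs that MIWI2 binds in erythropoietic cells. The comparison here asks where the piRNA-length reads of spleen lie, and how far they match testis reads in position, length and copy number.

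There was 1 library per side, so no difference has a replicate check and no test was made. Tissue, immunoprecipitation against gel selection, and the individual library differ together and cannot be told apart. Intervals are exact Clopper-Pearson 95% intervals and cover counting error only, since reads without molecular identifiers can be copies of one molecule. A limit of 3 reads corresponds to 45.9 per 1000000 of the 24 to 32 nt reads in spleen and to 2.80 in testis. The files carry neither strand nor sequence, and the annotation and sequences at hand are of another genome build. Positions are therefore given without gene names, and tissue markers could not be checked.

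The genome was divided into 10 kb windows, and these were split by the testis level over all read lengths. The 302 windows with at least 100 testis reads per 1000000 mapped reads (RPM) cover 3.02 Mb and are called testis-rich windows below. The name stands for the testis level alone, and 6 of them held no 24 to 32 nt read in either library. They held 11202 of the spleen reads, or 17.1% (16.8 to 17.4), and 54161 spleen reads, or 82.9%, lay in all other windows. A single window on chromosome 7 held 22795 of the latter, and without the 5 windows with most spleen reads the share was 33.7%. By distinct interval, meaning each pair of start and end counted once, the testis-rich windows held 2319 of 8852 spleen intervals, or 26.2% (25.3 to 27.1). In testis they held 95.0% of the reads, a share that the split itself sets.

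Inside the testis-rich windows the spleen reads had nearly the lengths of the testis reads. Reads of 29 to 32 nt made up 78.6% (77.8 to 79.3) in spleen and 80.6% (80.5 to 80.7) in testis, and 30 nt was the most frequent length in both, with 32.8% and 33.8%. By distinct interval the long class was larger in spleen, with 75.8% (74.0 to 77.5) against 66.8% (66.6 to 67.0). By reads, 32 nt was 7.76% in spleen and 4.41% in testis, and 24 nt was 3.14% and 1.83%. Both orders turned by distinct interval, with 4.92% against 5.27% at 32 nt and 2.85% against 3.73% at 24 nt. The shares by distinct interval were not thinned to equal depth. Testis had 222501 intervals in these windows and spleen 2319, so these differences may reflect depth. At 32 nt the order by reads also turned when only windows with at least 20 testis left ends were kept, with 3.51% against 4.42%. Elsewhere this long class made up 49.7% (49.3 to 50.2) in spleen and 75.6% (75.2 to 76.0) in testis. The spleen value was 26.6% without the 5 windows with most spleen reads. When each interval was counted once, it was 22.4% (21.4 to 23.5) in spleen and 73.8% in testis. Spleen intervals outside the testis-rich windows were thus mostly shorter, and the 29 to 32 nt reads there lay on few intervals. The MEL reads in the testis-rich windows were from 29 to 32 nt long in 19.7% of cases and averaged 26.7 nt, against 29.3 nt in spleen and 29.4 nt in testis.

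**Figure D1:**
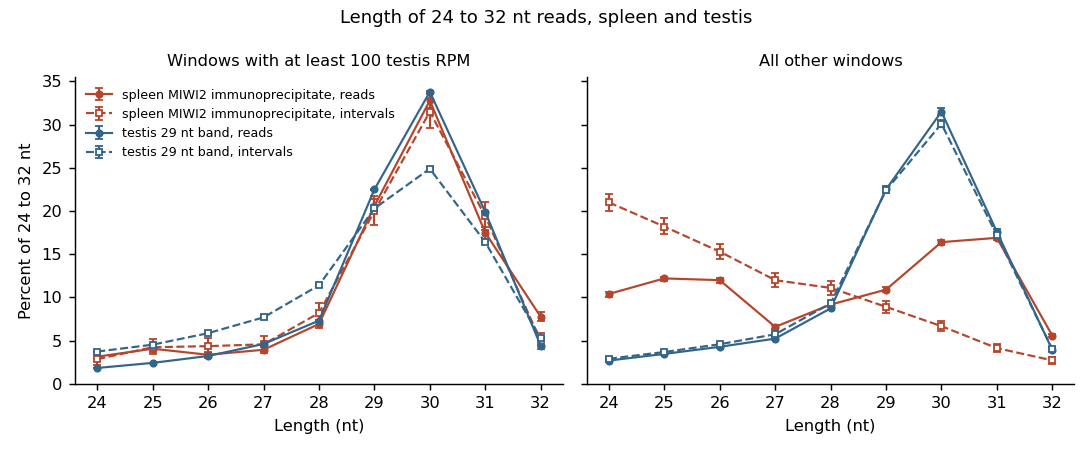
Share of each length from 24 to 32 nt (y axis, percent) in spleen (red) and testis (blue), by reads (filled points, solid lines) and by distinct intervals (open points, dashed lines); bars are exact 95% intervals. In windows with at least 100 testis RPM (left) both libraries peak at 30 nt, and in all other windows (right) spleen intervals are most frequent at 24 nt.

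Most spleen intervals in the testis-rich windows had exactly the start and end of a testis read. Of the 2319 intervals, 1898, or 81.8% (80.2 to 83.4), occurred in testis with both ends, and these held 86.3% (85.7 to 87.0) of the spleen reads there. With testis thinned to the 65363 reads of spleen, the share expected was 50.4%, and 0.464% in the other windows. A further 4.05% had both ends in testis but in different reads, 4.14% had only the left end, 3.92% only the right end, and 6.04% (5.10 to 7.08) neither end. As a measure of what depth allows, the testis reads of these windows were thinned to 11202 reads and matched to the testis reads not drawn, by exact calculation. Thinned testis would share both ends for 82.3% of its intervals and neither end for 5.32%. The value of 82.3% lies inside the interval of the spleen value, so at an equal number of reads spleen intervals matched testis about as often as testis matched itself. At 2656 reads, the depth at which testis has as many intervals as spleen, these values would be 84.9% and 4.52%, just outside the spleen intervals. In MEL 47.8% (47.3 to 48.4) of the intervals in these windows had both ends in a testis read and 15.2% had neither. MEL was not thinned and had 56522 reads there, so its depth differs from that of spleen. Its reads were also shorter, with 19.7% of 29 to 32 nt against 78.6% in spleen. The part of depth or length in the lower MEL share was not tested.

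In the other windows 3.12% (2.71 to 3.57) of the 6533 spleen intervals had both ends in a testis read, and 90.3% (89.5 to 91.0) had neither end. Testis had 54030 reads there, about as many as spleen, but on 46100 intervals, of which 92.2% were read once. These windows as a whole could not be thinned to their 54161 spleen reads. The 3.12% therefore has no value of testis against itself beside it. The share with both ends was 3.45% (2.78 to 4.24) in windows above 0 and under 10 testis RPM. It was 21.0% (17.7 to 24.6) in windows of 10 to under 100 testis RPM. A match needs a testis read, so a rise with the testis level is largely set by how the windows were grouped. In windows of 10 to under 100 testis RPM, testis thinned to the 3478 spleen reads would match itself for 29.8% of its intervals. The windows under 10 testis RPM have no such value. Of the 3478 spleen reads 22.4% (21.0 to 23.9) were 29 to 32 nt long, against 78.6% in testis. Windows without any testis read held 8027 spleen reads on 3431 intervals, of which 16.4% (15.1 to 17.6) were 29 to 32 nt long.

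**Figure D2:**
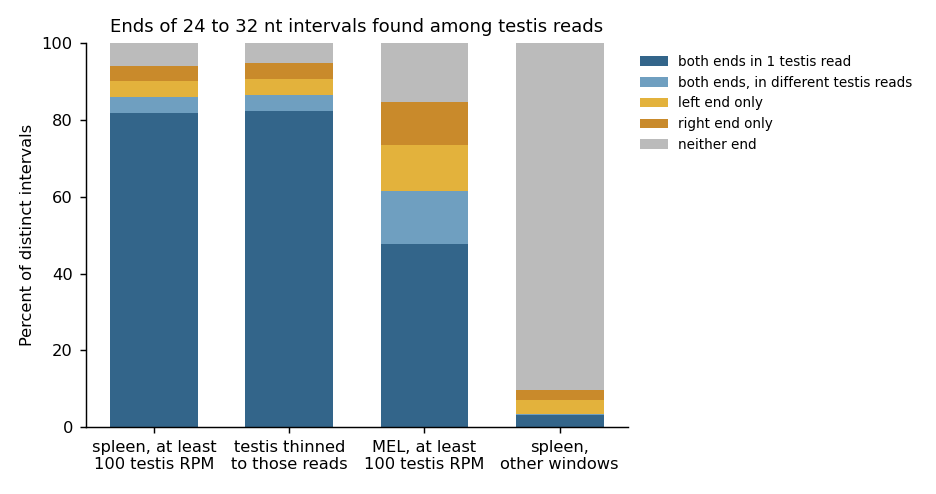
Percent of distinct 24 to 32 nt intervals (y axis) by which of their ends occur among testis reads, for spleen in windows with at least 100 testis RPM, for testis thinned to the same number of reads and matched to its other reads (expected values), for MEL in the same windows, and for spleen in all other windows. The first bars are alike, with 81.8% and 82.3% sharing both ends. MEL, which is not thinned and has shorter reads, has 47.8%. Spleen elsewhere has 3.12%, and no thinned testis value is given for those windows as a whole.

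The shared intervals were longer than the unshared ones with all testis-rich windows pooled, and single windows were not compared. In the testis-rich windows 80.5% (78.6 to 82.2) of the spleen intervals with both ends in a testis read were 29 to 32 nt long. Of those with neither end in testis 57.9% (49.2 to 66.1) were, and of those with only the left end 47.9% (37.6 to 58.4). By length, both ends were shared for 88.8% (86.3 to 91.0) of the 30 nt intervals, 86.6% of the 29 nt intervals and 60.6% (47.8 to 72.4) of the 24 nt intervals. Testis reads of 24 nt were also the fewest, at 1.83%, after gel selection near 29 nt, and its part in this gradient was not tested. Intervals with more spleen reads were shared more often: 72.7% (68.5 to 76.6) of those read once and 88.8% (83.9 to 92.6) of those read 10 times or more.

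At an equal number of reads, copy number in the testis-rich windows differed strongly between the libraries. In the testis-rich windows a spleen interval was read 4.83 times on average, with a median of 3, and 21.1% of the intervals were read once. Testis at full depth, with 1017031 reads, had 4.57 reads per interval with 60.2% read once. Thinned to the same 11202 reads, testis would have 8353.7 distinct intervals, 1.34 reads on each and 85.6% read once. Spleen had 2319 intervals, so its reads fell on far fewer positions than an equally deep sample of testis would. Intervals read 5 times or more made up 38.2% in spleen and 1.93% in thinned testis. For testis to show as few intervals as spleen, 2656 reads would suffice, at 1.15 reads per interval. When testis as a whole was thinned to the 65363 spleen reads of this length, the testis-rich windows would have 1.86 reads per interval and the other windows 1.03. In those other windows spleen had 8.29, with 50.8% of intervals read once. Intervals of 100 or more reads, 36 in number, held 59.2% of the spleen reads there. In MEL the averages were 1.91 in the testis-rich windows and 7.43 elsewhere. The means outside the testis-rich windows rest on few intervals. The median there was 1 read in both libraries, 76.6% of MEL intervals were read once, and the spleen mean was 3.40 without intervals of 100 or more reads.

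**Figure D3:**
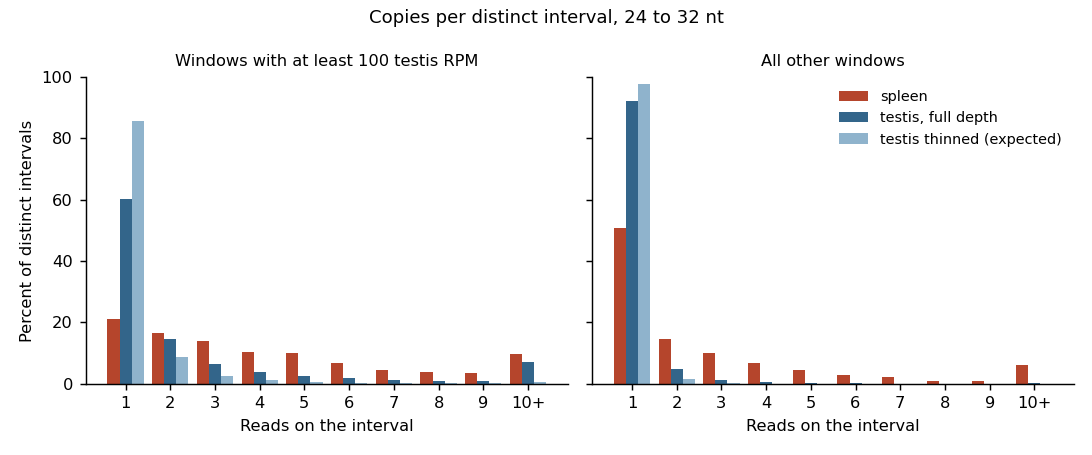
Percent of distinct intervals (y axis) by the number of reads on them (x axis, 10+ for 10 or more) in spleen, in testis at full depth and in testis thinned to the spleen reads (expected values; left, to the 11202 reads of these windows; right, the library thinned to 65363). Intervals read once are 21.1% in spleen and 85.6% in thinned testis on the left, and 50.8% and 97.9% on the right.

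Which testis intervals were found in spleen depended on their copies in testis, while the spleen copies depended on them only weakly. Of the testis intervals read once, 0.112% (0.0947 to 0.131) occurred in spleen. The share was 3.37% (2.99 to 3.77) for 10 to 19 testis reads, 24.5% (21.2 to 28.1) for 100 or more but under 200, and 80.0% (69.9 to 87.9) for 500 or more. Testis thinned to 2656 reads, the depth with as many intervals as spleen, would give 0.261%, 3.44%, 29.6% and 87.5%. Spleen was lower in each of the 9 copy classes, and within its counting interval only at 10 to 19, 50 to 99 and 500 or more testis reads. Every interval of thinned testis is a testis interval, but only 1898 of the 2319 spleen intervals were. Part of the shortfall is therefore set in advance. Thinned to all 11202 reads, testis would give 1.10%, 13.8%, 76.7% and 99.9%, well above spleen in each case. The spleen reads on an interval that was found averaged 3.82 where testis had 1 read, 4.37 at 10 to 19 testis reads, 5.77 from 100 to under 200 and 14.0 at 500 or more. Over the 1898 intervals in both libraries, log2 copies had Pearson's r of 0.24 and Spearman's rho of 0.21. These are descriptions across intervals that share 1 library on each side, and they leave out the intervals absent from either.

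**Figure D4:**
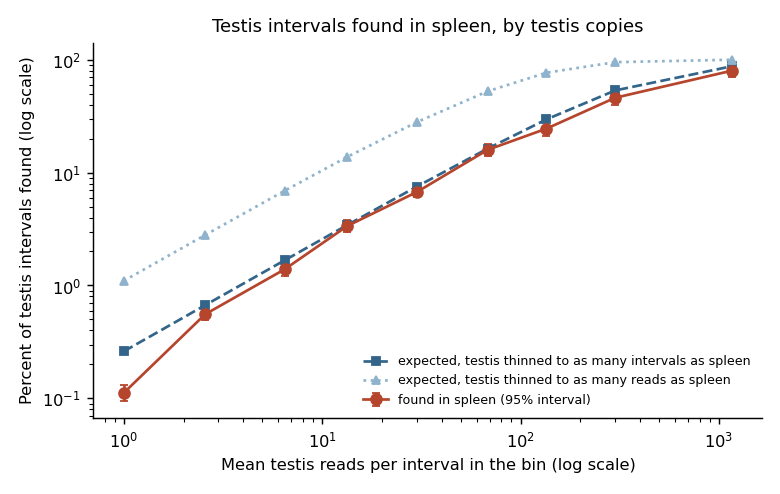
Percent of testis intervals found in spleen (y axis, log scale) by the mean testis reads per interval in each of 9 bins (x axis, log scale), in windows with at least 100 testis RPM, with exact 95% intervals; lines without bars are expected values for thinned testis. Spleen lies at or below testis thinned to 2656 reads, with 0.112% against 0.261% at 1 testis read and 80.0% against 87.5% from 500. It lies far below testis thinned to 11202 reads. Thinned testis holds testis intervals only, whereas 1898 of the 2319 spleen intervals were in testis, so part of the shortfall is set in advance.

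Window by window, spleen followed the testis level. Of the 302 testis-rich windows 296 held a read of this length in either library and 240 held at least 1 spleen read. The 56 without one had 1 to 1089 testis reads. Spleen and testis log2(reads + 1) over the 296 windows gave Pearson's r of 0.87 and Spearman's rho of 0.88, a description over windows that were chosen on testis. The ratio of spleen to testis, each per 1000000 reads of 24 to 32 nt, had a median of 0.176 over the 131 windows with at least 20 spleen reads. A ratio below 1 for most of these windows follows from the shares of 17.1% and 95.0%. Of the windows with at least 100 per 1000000 in either library, 33.0% were 4-fold or more lower in spleen and 52.3% were 4-fold or more higher. Among the 293 of them that were testis-rich windows, 207 were lower and 0 higher, and among the 334 others 0 were lower and 328 higher. The split by testis level largely sets these directions.

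Of the 10 testis-rich windows with most spleen reads, 7 had 1266 to 2139 distinct left ends in testis. On chromosome 17, positions 27450001 to 27460000 had 229 spleen reads on 44 intervals and 20929 testis reads on 2837. Its ratio was 0.179 (0.157 to 0.204), its most frequent length was 30 nt in both libraries, and 90.9% of its spleen intervals had both ends in testis. An equally deep sample of its testis reads would have 157.7 intervals. On chromosome 6, positions 127750001 to 127760000 had 220 spleen reads on 43 intervals, of which 88.4% were shared, against 136.0 intervals in thinned testis. On chromosome 9, positions 67550001 to 67560000 had 212 spleen reads on 28 intervals, 85.7% of them shared. In 2 windows the lengths differed: on chromosome 9 from 54060001 to 54070000 the long class was 51.8% of 166 reads in spleen and 84.0% in testis. On chromosome 15 from 59100001 to 59110000 it was 63.8% of 210 reads and 84.2%.

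A smaller set differed in length and level. In 9 of the 131 windows the most frequent spleen length was 32 nt, the longest length kept. These were also the 9 with the highest ratios, from 1.96 to 3.33. The remaining 122 ranged from 0.0696 to 0.756. The 9 were singled out after their values were seen. They held 1338 spleen reads, 11.9% of those in testis-rich windows, and 8451 testis reads, 0.831%. Reads of 32 nt made up 42.7% in spleen and 3.14% in testis, while reads of 30 nt made up 21.8% and 72.0%. Testis had 4 to 26 left ends in each of these windows, against 162 to 2139 in the other 122. Both ends were in testis for 76 of the 152 spleen intervals there, against 86.0% in the 122. Spleen had more distinct intervals than thinned testis in each of the 9. In each of the 122 spleen had fewer. The 9 windows need not be separate sources, because how multiply matching reads were placed is not stated. Some had near-equal testis counts, such as 458, 479 and 488 reads in windows on chromosomes 3, 13 and 11. Whether the same reads were placed in several of the 9 was not tested.

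The 3 of them with most spleen reads had over 90% of these reads on 1 left end and show the shift there, whereas in 5 of the 9 no left end held 50% of the spleen reads. On chromosome 3 the left end 96962008 held 274 of 284 reads in spleen and 1710 of 1715 in testis, counted over its window from 96960001 to 96970000. The right end 96962039, giving 32 nt, had 135 spleen and 50 testis reads, and the right end 96962037, giving 30 nt from that left end, had 65 and 1289. On chromosome 1 the left end 173033174 held 288 of 319 spleen reads and 1725 of 1754 testis reads. Its right end 173033205 had 122 spleen and 53 testis reads, and 173033203 had 76 and 1289. On chromosome 10 the left end 30530946 held 230 of 245 spleen reads and 1656 of 1664 testis reads. Its right end 30530977 had 119 spleen and 39 testis reads, and 30530975 had 48 and 1221. Among reads of up to 32 nt, spleen ended most often 2 nt further right than testis at all 3 places. Since 32 nt is the longest length kept, the most frequent spleen end may lie further right. Reads reached 40 nt in spleen and 36 nt in testis, and those above 32 nt were not examined here. The near-equal testis counts at the 3 places need not come from separate sources, because how multiply matching reads were placed is not stated in the sources used here. Whether the gel cut shaped the 30 nt peak in testis was not tested.

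At most shared ends in the testis-rich windows, those of the 9 windows included, mean lengths were alike. At left ends in the testis-rich windows with at least 5 reads in each library, the mean length was within 0.5 nt between spleen and testis for 434 of 677, shorter in spleen for 128 and longer for 115. At right ends it was within 0.5 nt for 457 of 696, shorter for 113 and longer for 126. In the other windows fewer ends could be compared, and 7 of 23 left ends and 6 of 17 right ends were within 0.5 nt. By window, the mean length differed by 0.5 nt or less in 76 of the 131 windows, with a median difference of -0.0929 nt (spleen minus testis) and a range of -2.95 to 1.39. The most frequent length was the same in 71 and lay at 29 to 31 nt in 111 windows in spleen and 130 in testis.

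Distinct left and right ends were counted because the files carry no strand, and a fixed 5′ end with a variable 3′ end leaves fewer distinct positions on the 5′ side. In testis 61 of the 131 windows had fewer left ends and 70 fewer right ends. In spleen the side with fewer ends was the same as in testis in 74 windows and the opposite in 4. In the other 53 windows spleen was tied, whereas testis had no tie. The chromosome 17 window above had 1857 left and 1219 right ends in testis and 40 and 33 in spleen. That on chromosome 6 had 1266 and 1880 in testis and 34 and 43 in spleen. Spleen reads thus had the same sided pattern as testis in 74 of the 131 windows, which is 94.9% of those not tied. Most spleen intervals in these windows were testis intervals, with a median of 86.7% by window, so this is not separate from the shared ends.

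**Figure D5:**
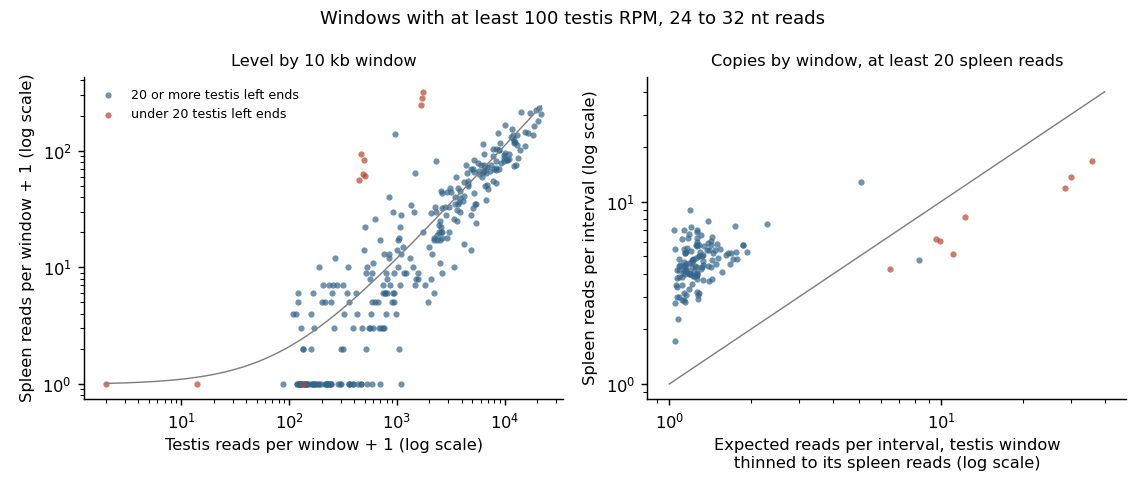
Left, spleen against testis reads of 24 to 32 nt per 10 kb window (both + 1, log scales) in the 296 windows; the grey curve is the class-wide proportion. Right, spleen reads per interval in 131 windows (log scales, grey line equality). They are set against the value expected when the window's testis reads are thinned to its spleen reads. Above the line lie 122 windows. The 9 below it are those where 32 nt, the longest length kept, was most frequent in spleen. Of these, 8 have under 20 testis left ends (red).

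Among the 131 windows with at least 20 spleen reads, 122 had more reads per interval in spleen than in thinned testis. The windows with fewer spleen reads were not compared. Over the 122 windows the spleen reads per interval ranged from 1.71 to 12.8 with a median of 4.66. Thinned testis would have 1.04 to 5.08 with a median of 1.25. The highest of the 122 was on chromosome 8 from 112640001 to 112650000, where 141 spleen reads lay on 11 intervals, all of them in testis. The most-read left end of each library there held 66.0% of its reads in spleen and 78.1% in testis. The lowest ratio to testis was on chromosome 10 from 85220001 to 85230000, with 23 spleen reads on 8 intervals and 5416 testis reads, 0.0696 (0.0441 to 0.105). The share of spleen intervals with both ends in testis had a median of 87.5% over the 122 windows.

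The spleen intervals of testis-rich windows that testis lacked reached at most 18 reads. The leading one was the 25 nt interval on chromosome 13 from 21596129 to 21596153, with 18 reads, whose left end had 12 testis reads and whose right end had 3. Next came the 29 nt interval on chromosome 6 from 127750789 to 127750817, with 17 reads. The highest with neither end in testis was on chromosome 9 from 67553248 to 67553277, with 14 reads of 30 nt.

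Outside the testis-rich windows, the windows leading in spleen reads had few testis reads. The split keeps every window there under 100 testis RPM, and these were picked for most spleen reads. A low testis level beside a high spleen level is therefore largely set in advance. On chromosome 7, positions 118210001 to 118220000 had 22795 spleen and 5 testis reads. The 4 leading left ends, 118219709 to 118219712, held 5606, 11165, 2251 and 3066 of these spleen reads in order of position. The right ends 118219739 and 118219740 held 51.6% and 44.2%. None of these ends had a testis read, and 30.3% of the reads were 30 nt and 36.0% were 31 nt long. The stack was ragged by up to 4 positions on the left and nearly fixed to 2 on the right. The window on chromosome 8 from 112360001 to 112370000 had 6256 spleen and 3 testis reads, 87.6% of the spleen reads with left end 112363200, and 0% of 29 nt or longer. On chromosome 9 from 40610001 to 40620000, 1519 spleen reads were mostly of 24 to 26 nt, with left ends 40611666 and 40612078 holding 691 and 690. On chromosome 11 from 116930001 to 116940000 the left end 116938557 held 705 of 720 spleen reads, and 52.2% were 28 nt long. Different in kind was chromosome 11 from 101500001 to 101510000, with 852 spleen reads on 121 intervals and 51 left ends, most often 27 nt long, and 2 intervals shared with testis.

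The shared intervals outside the testis-rich windows with most spleen reads had few testis reads, which the split largely sets. No interval there had more than 66 testis reads. On chromosome 12 the 29 nt interval from 72070151 to 72070179 had 203 spleen and 2 testis reads. On chromosome 9 the 29 nt interval from 90021391 to 90021419 had 190 and 1, and the 30 nt interval with the same right end had 107 and 1. The 24 nt interval on chromosome 19 from 8799063 to 8799086 had 102 and 5.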

How the data were processed

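Per the labels' protocols, the libraries were made by Illumina's small RNA preparation from a MIWI2 immunoprecipitate of spleen and from a gel band of testis. The authors deposited positions of mapped reads, 1 line per read with chromosome, start and end, and no other value, so the unit is a position and not a normalized count. Per the submitters' processing notes, reads were mapped with Bowtie 0.12.7. The build, the options, any trimming and the placing of multiply matching reads are not stated. Reads on chromosome 7 reach 152523579, beyond the last GRCm38 gene there at 145324059, so GRCm38 annotation and sequences were not joined. Positions are counted from 1.

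Reads were assigned to 10 kb windows by their left end. Windows were split at 100 testis RPM over all lengths. Thinning used exact hypergeometric expectations, without random draws, and was tested on simulated draws and planted intervals. A fold is the ratio of reads per 1000000 reads of 24 to 32 nt, with 3 reads as the floor. Named regions were those with most spleen reads, the highest or lowest ratio, or the intervals with most reads, shared or not. The members and rules were chosen with earlier results of these data known. Python 3.11.15, numpy 2.4.6, pandas 2.3.3 and scipy 1.17.1 were used.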

Additional observations from a re-analysis of the deposited data

How the results depend on the processing

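Each side had 1 library and reads carry no molecular identifiers, so the intervals cover counting error only and may be too narrow. No paired analysis was possible because each group holds 1 library. Of 67 alternative values 36 stayed within counting error, or within 1.5 times for counts, and 31 did not. The share of spleen reads in testis-rich windows was 19.7% for 26 to 31 nt reads, 17.4% with a split at 50 RPM, 33.7% without the 5 windows with most spleen reads, 26.2% by distinct interval, and 15.3% with only windows of at least 20 testis left ends, a setting chosen after seeing the data. In that setting spleen had 4.55 reads per interval, 77.4% of reads from 29 nt and 83.7% of intervals with both ends shared, and 50.6% and 3.98% in the other windows. There testis thinned to the same reads would have 1.32 reads per interval and 82.5% shared. Reads per interval in the other windows were 10.3 for 26 to 31 nt, 3.49 without the 5 windows and 3.40 without intervals of 100 or more reads. The share from 29 nt in the testis-rich windows and elsewhere was 83.3% and 61.4% for 26 to 31 nt and 75.8% and 22.4% by interval, and 26.6% elsewhere without the 5 windows. Both ends were shared, in the same order, for 83.4% and 4.27% at 26 to 31 nt, 90.9% and 6.32% within 1 nt, 84.3% and 4.23% with at least 2 spleen reads, and 50.4% and 0.464% with testis thinned to the spleen reads. Thinned testis had 1.81 reads per interval at 26 to 31 nt. By distinct interval 61 windows were lower and 3637 higher in spleen, since 1 spleen interval then passes the limit of 100 per 1000000. Lengths within 0.5 nt rose to 68.1% of left and 69.9% of right ends with at least 10 reads, from 64.1% and 65.7%.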
